A study of Mus musculus with 6 samples.

Results

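The keratin-positive cells described here were 51 of 51633 single cells from 6 mouse libraries that passed the quality filters, a share of 0.0988% (95% exact interval 0.0736% to 0.130%). They were picked by UMI counts, where a UMI marks 1 captured RNA molecule. A cell had to hold at least 250 genes, at most 5% mitochondrial UMIs and at least 5 UMIs of Krt8, Krt18 and Krt19 together. It also had to hold at most 1 UMI of Ptprc (CD45), at most 5 of C1qa, C1qb and C1qc together, and none of Cd3d, Cd3e, Cd3g or Cd79a. The levels of these 11 genes in the cells are therefore a consequence of the choice.

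The study placed KPCA cells, a homologous recombination-proficient mouse line with the Trp53 allele R172H opposite a Trp53 deletion and overexpressed Ccne1 and Akt2, into the ovarian bursa of female C57BL/6 mice aged 6 to 8 weeks. All 6 mice carried this graft, and each group was 1 mouse and 1 library. The 2 glycosylation inhibitors were 2FF (2F-Peracetyl-Fucose), which blocks fucosylation, and 2DG (2-deoxy-D-glucose), which the study used against branched N-glycans. In the 2FF groups the tumor cells were treated for 3 days before injection and the mice were then dosed every 2 days, while 2DG was dosed every 2 days and anti-PD-L1 antibody was given for 3 weeks, both after day 9. The control mouse received solvent and rat IgG. Each inhibitor was given alone (2FF, 2DG) or together with the antibody, 1 mouse received the antibody without an inhibitor, and tissue was taken at day 30. The labels call the tissue lymph node and the series' design text speaks of young and aged mice, whereas the study's methods describe ovarian tumors and give the single age range above. KPCA is 1 engineered line, and a sort before loading is not given in the sources used here. Each treatment had 1 library, and no difference between treatments was tested.

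Keratin 8 and keratin 18 pair into the intermediate filaments of simple epithelia, and keratin 19 and keratin 7 are added in ductal and Mullerian epithelium. Mouse models of high-grade serous carcinoma often start from oviductal cells, whose lineage factor is Pax8. Carcinoma cells can shift from an epithelial state, held by E-cadherin and Epcam, toward a mesenchymal state with vimentin and matrix genes, and they can turn on antigen presentation genes under interferon-gamma.

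The cells were spread unevenly over the libraries. The control library held 1 keratin-positive cell among 9075 passing cells (0.0110%, 95% interval 0.000279% to 0.0614%). The 2DG library held 12 of 7703 (0.156%, 0.0805% to 0.272%) and the 2FF library 15 of 9222 (0.163%, 0.0911% to 0.268%). Those 2 intervals lay above the control interval under the rule as given. With at least 10 keratin UMIs 2DG held 7 cells (0.0909%) and the control 0, and intervals are not given for that setting. The anti-PD-L1 library held 2 of 8801 (0.0227%, 0.00275% to 0.0821%), and the 2DG plus anti-PD-L1 library 5 of 9026 (0.0554%, 0.0180% to 0.129%). The 2FF plus anti-PD-L1 library held the most, 16 of 7806 (0.205%, 0.117% to 0.333%). The intervals are Clopper-Pearson intervals and cover counting error only, so they say nothing of how a second mouse of a group would differ. The single control cell was the shallowest of the 51, with 829 UMIs, 4 of them from Krt8 and 4 from Krt18, and none from Hmga2, Cdkn2a, Pax8 or Msln.

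Depth differed as much as number. Keratin-positive cells had a median of 19021 UMIs and 4950 genes, with a range from 829 to 177516 UMIs. The medians were 20030 UMIs in 2DG, 7802 in 2FF and 31688 in 2FF plus anti-PD-L1, beside 6745, 6505.5 and 7732 UMIs for all passing cells of those libraries. Thus 3 cells above 100000 UMIs (1 in 2DG, the others in 2FF plus anti-PD-L1) held 32.5% of all UMIs of the population. At the other end, 9 cells had fewer than 3000 UMIs, 6 of them in 2FF. A nuclear RNA, Malat1, was at 8 or fewer UMIs in 13 cells, 12 of which also had under 1% mitochondrial UMIs. Those 13 cells were 8 of the 15 in 2FF, 2 of the 12 in 2DG, the control cell, and 1 cell in each of the libraries that combined an inhibitor with the antibody. Among other passing cells, 2.48% in 2FF and 4.91% in 2DG were at 8 or fewer Malat1 UMIs. Without such cells the 2FF share was 0.0779% (7 cells) and the control had none. Statements on single cells below use the 42 cells with at least 3000 UMIs unless stated.

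**Figure D1:**
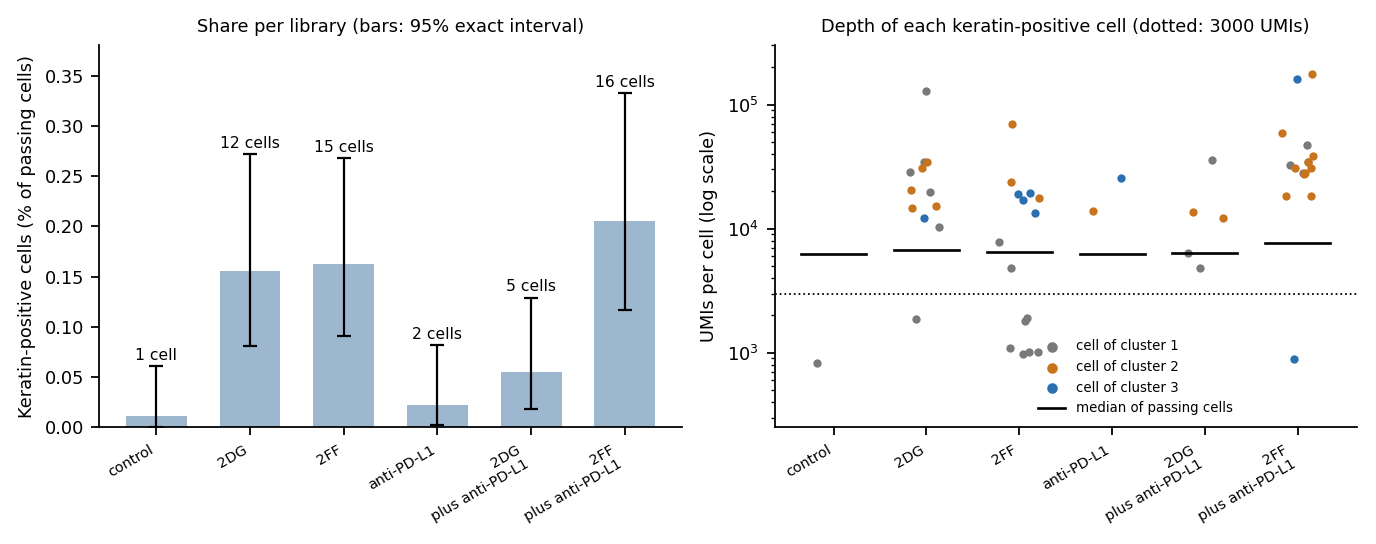
Left, share of keratin-positive cells among passing cells in each library, with bars for 95% exact intervals and the number of cells above; right, UMIs of each keratin-positive cell on a log scale, colored by cluster, with a line at the median of all passing cells. The 2DG, 2FF and 2FF plus anti-PD-L1 libraries hold 12, 15 and 16 cells against 1 in control, and 2FF has 6 cells under the dotted 3000 UMI line.

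The edge of the rule was not sharp. The 15 cells just inside it, with 5 to 9 keratin UMIs, had a median of 13334 UMIs, and Hmga2 was seen in 12 and Cdkn2a in 12 of them. Just outside, 16 cells with 3 or 4 keratin UMIs had a median of 942.5 UMIs, with Hmga2 in 7 and Cdkn2a in 8. All 36 cells with 10 or more keratin UMIs, with a median of 26750 UMIs, held Cdkn2a and 33 held Hmga2. Detection and depth rose together over these bins. The immune limits removed 35 of the 86 passing cells with at least 5 keratin UMIs. No barcode of a keratin-positive cell was shared between libraries, although 389 barcodes of the whole series were. None of the cells was flagged against simulated doublets. The immune limits had already removed cells with immune UMIs, so the lack of flags does not show that each was a single cell.

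The label of ovarian tumor cells was checked against markers. Wt1, a nuclear factor of mesothelium and serous carcinoma, was at 0 UMIs in all 51 cells, which allows a share of up to 5.88% of cells with a UMI. Msln, a surface protein of mesothelium and ovarian carcinoma, had 65 UMIs in 18 cells. Its UMIs numbered 18 in 2DG, 16 in 2FF, 1 in anti-PD-L1, 1 in 2DG plus anti-PD-L1, 29 in 2FF plus anti-PD-L1 and 0 in the control cell. Pax8, the Mullerian lineage factor, had 123 UMIs in 27 cells, and Krt7 had 367 in 29 cells. Of the 11 mesothelial markers 9 were at 0, among them Upk3b, Lrrn4 and Bnc1, and the most abundant was Krt7. Of the 10 ovarian granulosa, theca and luteal markers 8 were at 0, among them Amh, Foxl2, Inha and Cyp11a1. The ovarian carcinoma markers Muc16 (CA125), Folr1 and Slc34a2 were at 0 in all 51 cells, as Wt1 was. The label was therefore met in part only, and the cells are called by the rule.

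Immune markers outside the rule, Spp1 apart, were near 0. The immune limits of the rule select against cells with such markers, so their low levels are no independent check of the label. Endothelial markers were near 0 too, with 6 of 8 at 0 and 23 UMIs in all. The T and NK cell list summed to 18 UMIs over all 51 cells, with its most abundant gene Trbc2 at 5, and the neutrophil list to 7. Of the 10 macrophage and monocyte markers, Adgre1 was at 0, Tyrobp had 2 UMIs and Lyz2 had 16. The summed level of that list was still 3878 CPM (a gene's UMIs scaled to the summed UMIs of the cells) in 2DG, 2255 in 2FF, 3624 in anti-PD-L1, 1510 in 2DG plus anti-PD-L1 and 5311 in 2FF plus anti-PD-L1, because Spp1 (osteopontin), a secreted glycoprotein also made by carcinoma cells, contributed 6073 of its 6135 UMIs. Spp1 was found in 45 of the 51 cells at a summed level of 4246 CPM, against 1245 in macrophages and 130 in T cells. A few cells carried that sum: over the 42 deeper cells the median was 1629 CPM and the highest 23755, and the median of 2DG plus anti-PD-L1 was 837 beside 585 in macrophages of that library.

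The design asked for libraries with at least 50 keratin-positive cells, which none had. A comparison with the other passing cells of the same library was therefore made, after the counts were seen, in the 3 libraries with at least 10 such cells (2DG, 2FF and 2FF plus anti-PD-L1). A gene was called higher or lower where the ratio of summed CPM, with 5 CPM added, passed 2-fold the same way in all 3. Of 13404 genes with at least 50 UMIs in each of these 3 libraries, 1090 were higher, 8.13% of those tested, and 1616 were lower, 12.1%. The median log2 ratio of all genes tested was -0.10 in 2DG, -0.09 in 2FF and 0.06 in 2FF plus anti-PD-L1. No p-value belongs to these calls.

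Hmga2, an architectural chromatin protein of embryonic and cancer cells, had the highest ratio by the rule of the lowest of the 3 libraries. It lies on chromosome 10 (GRCm38, 120361275 to 120476469, minus strand). Its level was 2526 CPM in 2DG (95% Poisson interval 2362 to 2698), 1695 in 2FF (1520 to 1886), 327 in anti-PD-L1 (174 to 559), 1935 in 2DG plus anti-PD-L1 (1629 to 2282) and 1682 in 2FF plus anti-PD-L1 (1592 to 1776). In 2DG plus anti-PD-L1, 126 of the 141 Hmga2 UMIs came from 1 cell, and the median of its 5 cells was 414 CPM. The other cells had 5.71, 3.05, 2.34, 4.39 and 10.8 CPM in the same order, and the log2 ratio was 7.88 in 2DG, 7.72 in 2FF and 6.74 in 2FF plus anti-PD-L1. All 42 cells of at least 3000 UMIs held Hmga2, from 155 to 5580 CPM with a median of 1321. Thinned to 3000 UMIs, the expected share with a UMI was 89.0% of keratin-positive cells against 0.164% of T cells and 0.360% of macrophages. The 9 shallower keratin-positive cells, 657 T cells and 352 macrophages were left out of the thinned shares. Unthinned, the shares were 88.2%, 0.370% and 1.18%. Those T cells and macrophages were chosen to hold no keratin UMI. Cells with at least 5 Hmga2 UMIs also lay outside the rule. They were 36 of the keratin-positive cells, 6 cells within the immune limits with fewer keratin UMIs, and 32 cells that failed those limits. Of the 32, 19 had at least 5 keratin UMIs.

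Cdkn2a, which encodes the cell cycle inhibitor p16 and the p53 activator p19ARF, was found in 48 of 51 cells. Its level was 629 CPM in 2DG, 485 in 2FF, 327 in anti-PD-L1, 631 in 2DG plus anti-PD-L1 and 400.3 in 2FF plus anti-PD-L1, and 1.90 in macrophages and 6.73 in T cells over all libraries. It lies on chromosome 4 (GRCm38, 89274471 to 89294653, minus strand), and the 3' counts do not separate its transcripts. All 50 cells of the treated libraries had a UMI of Hmga2 or Cdkn2a, and 43 had both.

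**Figure D2:**
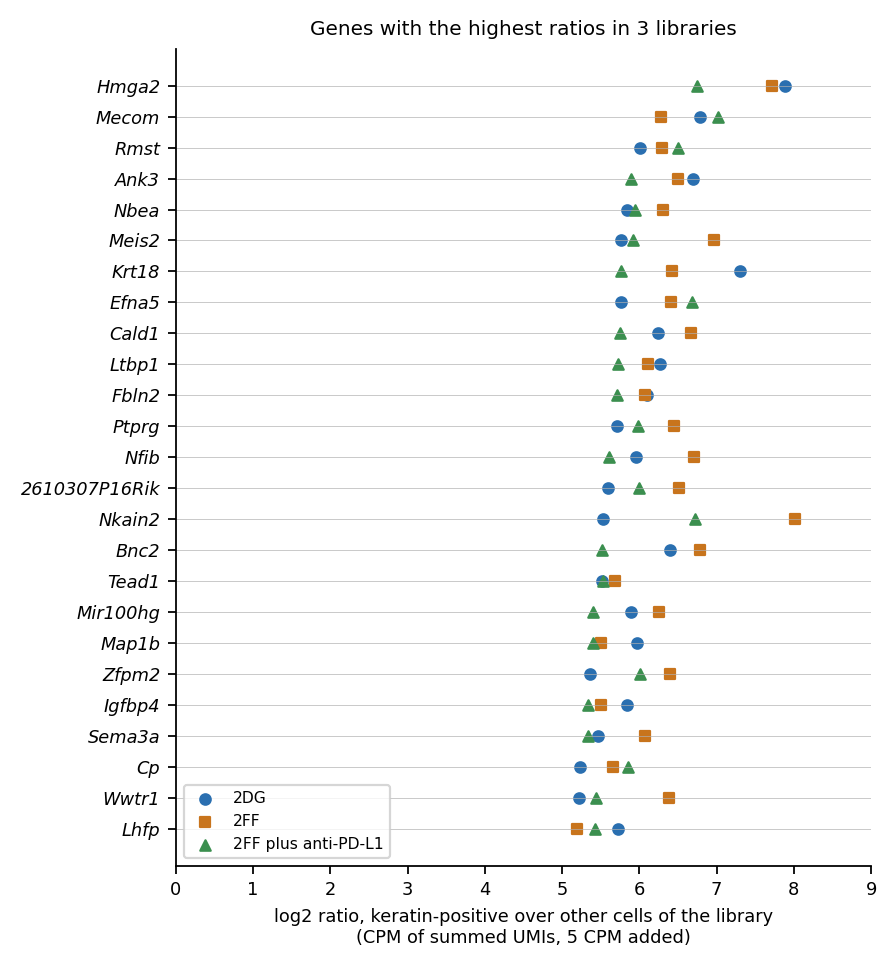
The 25 genes with the highest ratio of keratin-positive to other cells, ordered by the lowest of 3 libraries; the axis is the log2 ratio of summed CPM with 5 CPM added, and each symbol is 1 library. Hmga2 leads at 6.74 to 7.88, and Krt18 is in the set because the rule used it.

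Mecom, a zinc finger transcription factor of the EVI1 locus, followed Hmga2, with log2 ratios of 6.78 in 2DG, 6.29 in 2FF and 7.02 in 2FF plus anti-PD-L1 and UMIs in 32 cells. Further transcription factors in the leading 25 were Meis2, Nfib, Bnc2, Tead1 and Zfpm2, with the Hippo pathway coactivator Wwtr1 (TAZ). Tead1, the DNA-binding partner of Wwtr1, was found in 39 cells and Wwtr1 in 40. Cald1 (caldesmon, an actin-binding protein) was found in 46, Igfbp4 in 45, Fbln2 (fibulin 2) in 43 and Map1b in 42. The axon guidance genes Efna5 and Sema3a were found in 37 and 29 cells. At the opposite end were leukocyte genes, with log2 ratios for Srgn (serglycin) of -8.17 in 2DG, -7.33 in 2FF and -7.76 in 2FF plus anti-PD-L1 and 13 UMIs in all.

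Esr1, the estrogen receptor, was found in 38 of 51 cells. Its level was 351 CPM in 2DG, 1025 in 2FF, 529 in anti-PD-L1, 220 in 2DG plus anti-PD-L1 and 776 in 2FF plus anti-PD-L1, against 32.0 to 49.7 CPM in other cells over the 6 libraries. In 2DG plus anti-PD-L1, 3 of the 5 cells held no Esr1 and 1 cell held 14 UMIs. The 2 cells of anti-PD-L1 stood at 144 and 736 CPM of Esr1. Pgr, the progesterone receptor, was found in 20 cells at 152 CPM over all libraries.

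Epithelial and mesenchymal genes were both present. Of all genes tested 8.13% were higher and 12.1% lower, beside which the counts of each list stand. Of the 9 epithelial genes tested, 2 were higher in all 3 libraries: Krt7 and the tight junction scaffold Tjp1. Without the 2DG library 8 of 11 were higher, and 0 of 6 with a minimum of 200 UMIs. The list's median log2 ratio was 0.36 in 2DG, 3.48 in 2FF and 2.59 in 2FF plus anti-PD-L1. Of the 5 Mullerian and ovarian carcinoma genes tested, Pax8, Mecom and Clu (clusterin) were higher, and 4 of the 14 on the list were at 0 in all 51 cells. In the mesenchymal list 6 of 10 were higher, namely Zeb1, Twist1, Fn1 (fibronectin), Sparc, Axl and Prrx1, and Zeb2 was lower. Zeb2 stood at 279 CPM in keratin-positive cells and 2470 in macrophages. Fibroblast markers were also present: Col3a1, Dcn (decorin) and Acta2 were higher and Thy1 was lower among 4 tested, and Postn was at 0. The summed level of the 10 fibroblast markers was 2318 CPM in 2DG, 430 in 2FF, 176 in anti-PD-L1, 1482 in 2DG plus anti-PD-L1 and 506 in 2FF plus anti-PD-L1, with Dcn the most abundant at 510 UMIs. In 2DG plus anti-PD-L1 the median of the fibroblast sum over its 5 cells was 223 CPM, with 2 cells at 0 and the highest at 7676. All 21 cells with Col3a1 also held Hmga2.

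**Figure D3:**
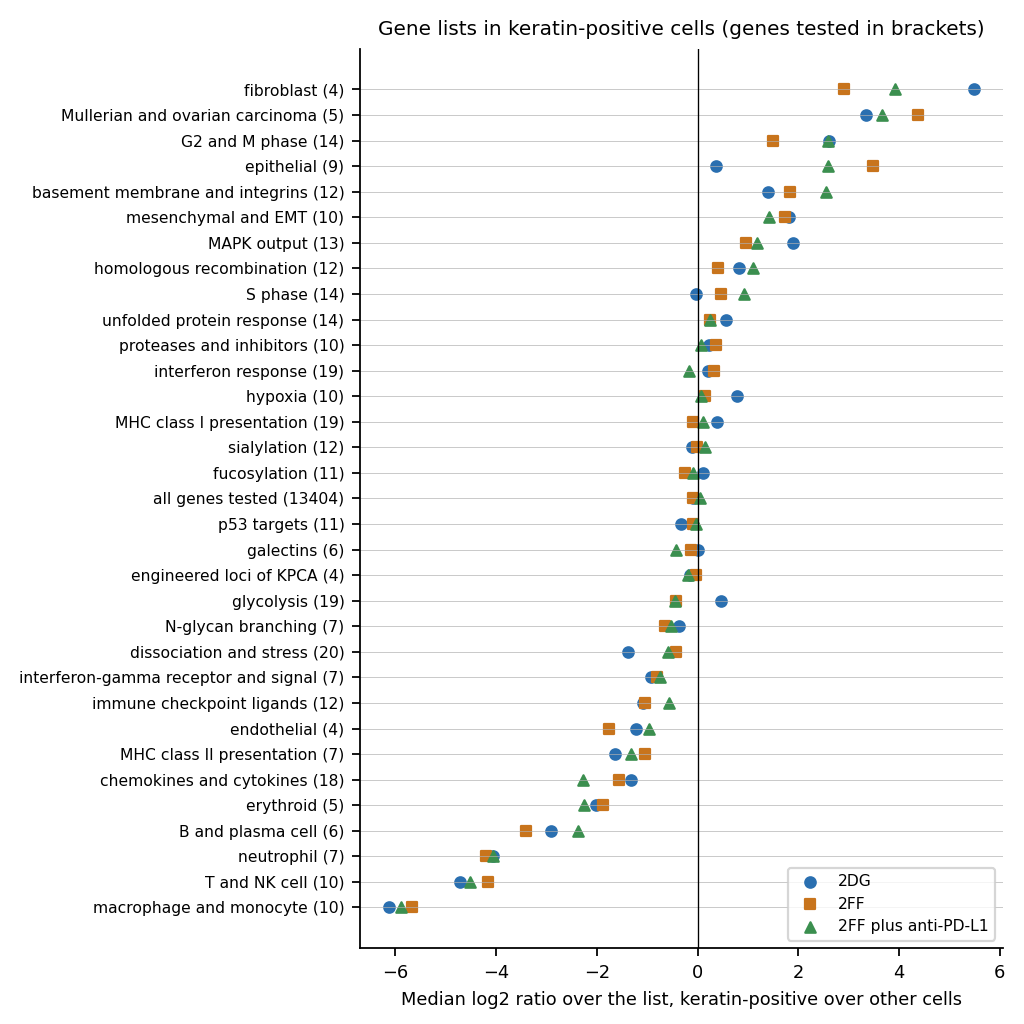
Median log2 ratio of keratin-positive to other cells over each gene list with at least 4 genes tested; symbols are the 3 libraries and the number tested is in brackets. Immune lists lie at the low end, fibroblast, Mullerian and G2 and M phase lists toward the high end, and all genes tested lie near 0.

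Genes engineered in the line and lists of p53 targets and MAPK output were compared with the other cells. Whether the engineered alleles set these levels was not tested. Ccne1 (cyclin E1) was higher, with 45 UMIs in 20 cells and log2 ratios of 1.40 in 2DG, 1.72 in 2FF and 2.11 in 2FF plus anti-PD-L1. Trp53 was lower, with 19 UMIs in 13 cells and log2 ratios of -2.06, -1.09 and -1.39 in that order. Akt2 passed 2-fold in neither direction in all 3 libraries, at 51.0 CPM against 50.9 in other cells, and 3' counts do not read the engineered alleles. The calls of both Ccne1 and Trp53 were lost with the mean of per-cell CPM, that of Ccne1 also without any Ptprc or C1q UMI, and that of Trp53 also with cells thinned to 3000 UMIs. Among 11 p53 target genes tested, Cdkn1a (p21), Mdm2, Ccng1 and Trp53inp1 were lower, against 12.1% of all genes. Phlda3 was higher, a share near the 8.13% of all genes. Cdkn1a had 45 UMIs, 31.5 CPM against 403 in other cells. Of 13 MAPK output genes, Etv4, Phlda1, Fosl1 and Ccnd1 were higher, against 8.13% of all genes. Dusp5 was lower, against 12.1% of all genes. Ccnd1 (cyclin D1) stood at 764 CPM and was found in 46 cells.

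Of 14 G2 and M phase genes 8 were higher in all 3 libraries, against 8.13% of all genes, and none was lower. Among the 8 were Ccnb1, Cdk1, Plk1 and Cenpf. Per cell, the list's level ran from 0 in 7 of the 42 deeper cells to 6338 CPM, with a median of 488. None of the 14 S phase and none of the 12 homologous recombination genes passed 2-fold in all 3. Among the 42 deeper cells, 13 had 5 or more UMIs of Mki67. Top2a was at 569 CPM in 2DG, 95.01 in 2FF, 982 in anti-PD-L1, 329 in 2DG plus anti-PD-L1 and 546 in 2FF plus anti-PD-L1. In anti-PD-L1, 38 of the 39 Top2a UMIs came from 1 of its 2 cells. In 2DG plus anti-PD-L1 the median of its 5 cells was 0 CPM and 1 cell held 23 Top2a UMIs. In 2FF plus anti-PD-L1, 1 cell held 214.

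Clustering of the 51 cells gave 3 clusters, which are a description without a test because the genes of these same cells made them. Cluster 3, 8 cells, was led by Samd12, Epcam, Lcn2, Cpm and Ltf, and held 4 cells of 2FF, 2 of 2FF plus anti-PD-L1 and 1 each of 2DG and anti-PD-L1. Epcam, an epithelial adhesion molecule, was found in 7 of these 8 cells and in none of the other 43. Its UMIs were 2, 9, 15, 36, 12, 12 and 239 in the 7. Lcn2 (lipocalin 2) and Ltf (lactoferrin), iron-binding secreted proteins of mucosal epithelium, were found in all 8. Cdh1 (E-cadherin) was found in 7 of the 8 and in 1 other cell. None of the 8 held Col3a1, Dcn, Mgp, Sparc or Cdh2. A cluster of 8 cells led by Epcam and Lcn2 also came out at the lower and the higher clustering resolution. Of its UMIs 59.7% came from 1 cell of 159299 UMIs, so levels here are medians over cells. Median Epcam in the 7 deeper cells was 675 CPM, median Esr1 was 1049 against 133 and 351 in clusters 1 and 2, and median Wfdc2, a secreted marker of serous carcinoma, was 999.

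Cluster 2, 21 cells, was led by Mest, Col12a1, Col1a2, Rarres2 and Osbpl6. It held 10 of the 16 cells of 2FF plus anti-PD-L1, 5 of the 12 of 2DG and 3 of the 15 of 2FF. Sparc, Prrx1 and Zeb1 were found in all 21, Dcn and Mgp (matrix Gla protein) in 17 and Col3a1 in 16. Keratin levels were low in it, with a median of 505 CPM for Krt8, Krt18 and Krt19 together against 3789 in cluster 1 and 2538 in cluster 3, and 8 of its cells had 5 to 9 keratin UMIs. Mki67, a proliferation marker, was found in 7 of the 21.

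Cluster 1, 22 cells, was led by Sprr1a, Ankrd1 and Fer1l6. It held 8 of the 9 cells under 3000 UMIs, 12 of the 13 cells with 8 or fewer Malat1 UMIs, and the control cell. At a resolution of 1 it parted into 13 cells with a median of 1862 UMIs and 9 cells with a median of 34671. Without cells below 3000 UMIs, 12 of its 14 deeper cells stayed together, led by Fer1l6. Of the Sprr1a UMIs, 79 came from 1 cell of 127390 UMIs, which held 29.4% of the UMIs of the cluster. Without cells below 3000 UMIs that cell joined the cells of cluster 2, and Sprr1a was not among the leading genes. In its 14 deeper cells median Vim was 2522 CPM, against 1437 in cluster 2 and 408 in cluster 3. Ccnd1 had a median of 1024 CPM there, against 392 and 155. Hmga2 was found in 17 of 22, 21 of 21 and 7 of 8 cells of clusters 1, 2 and 3, and Cdkn2a in 20, 20 and 8. Krt7 also crossed the clusters, in 14, 8 and 7 cells, while Col3a1 (5, 16 and 0 cells) and Dcn (5, 17 and 0) were missing from cluster 3 alone.

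**Figure D4:**
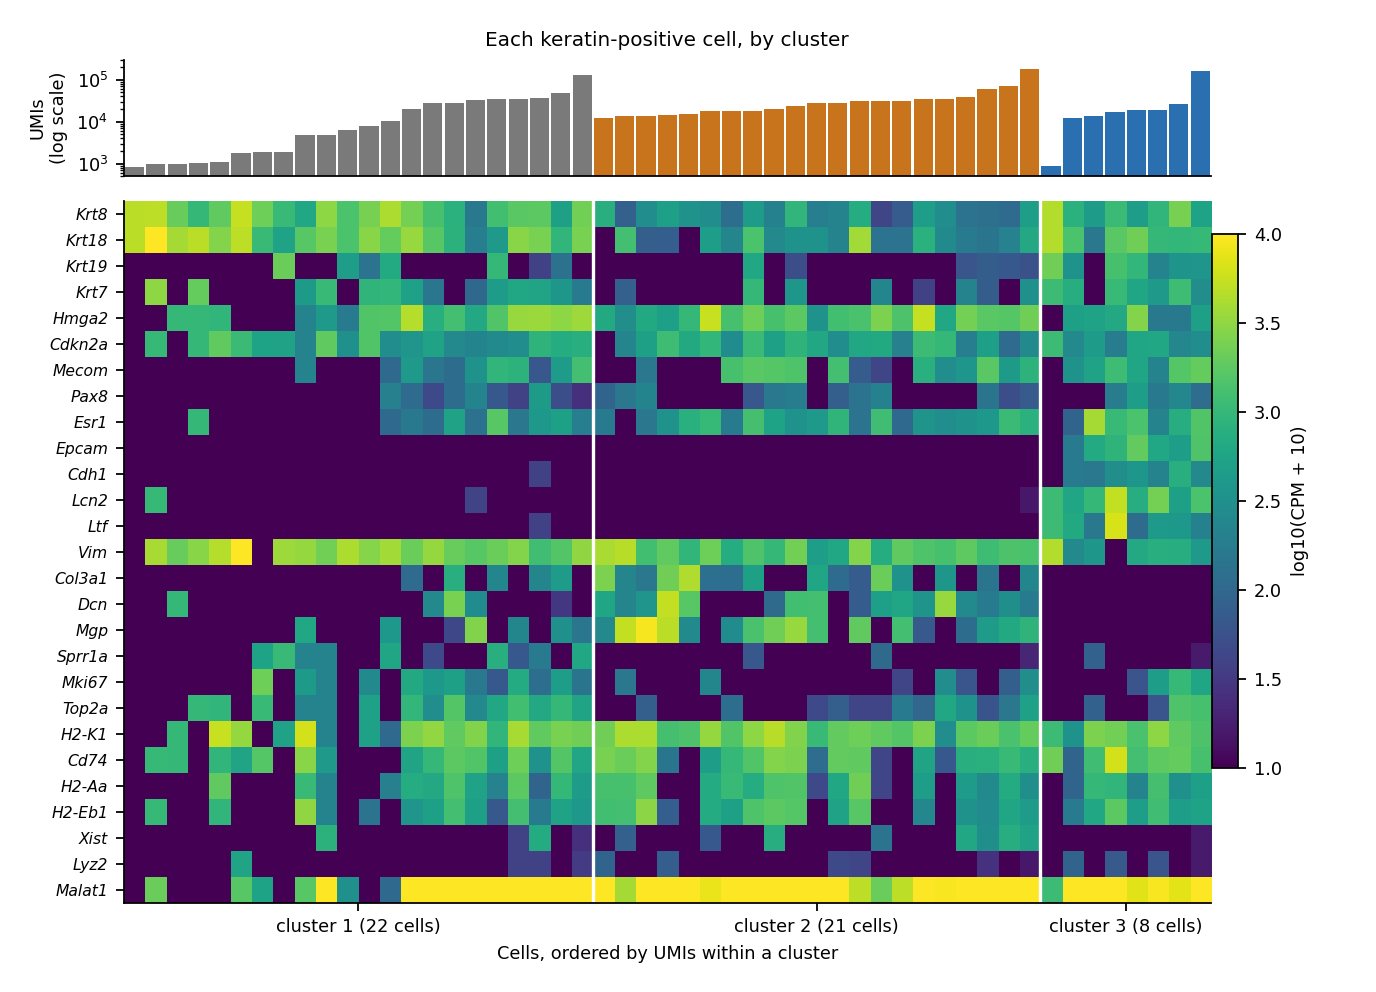
Each column is 1 keratin-positive cell, grouped by cluster and ordered by UMIs; the bars give UMIs on a log scale and the colors give log10 of CPM plus 10 for the named genes. Lcn2 and Ltf are in every cell of cluster 3 and Epcam in 7 of 8, and Col3a1, Dcn and Mgp are absent from it, while Hmga2 and Cdkn2a run through all clusters.

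MHC class I molecules show peptides to CD8 T cells and class II molecules show them to CD4 T cells, the latter chiefly on professional antigen-presenting cells and inducibly on epithelium. The 19 class I presentation genes summed to 9779 CPM in 2DG, 10231 in 2FF, 9790 in anti-PD-L1, 11048 in 2DG plus anti-PD-L1 and 10157 in 2FF plus anti-PD-L1. None was called higher, and H2-Q6 and H2-Q7 were lower, a share near the 12.1% of all genes called lower. H2-K1, a class I heavy chain, was at 2086, 2115, 2693, 2086 and 1908 CPM in the same order, above the other cells of each library (1452, 1645, 1414, 1579 and 1435), without passing 2-fold.

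The summed levels of the 7 class II genes lay between those of T cells and macrophages in each of the 5 treated libraries, and single cells ranged widely. H2-Aa, the class II alpha chain, was at 592 CPM in 2DG (514 to 678), 805 in 2FF (686 to 940), 831 in anti-PD-L1 (572 to 1166), 522 in 2DG plus anti-PD-L1 (369 to 716) and 503 in 2FF plus anti-PD-L1 (454 to 556). Macrophages had 3661, 3992, 3680, 3787 and 2627 CPM and T cells 253, 481, 301, 275 and 214 in the same order. Of the 7 genes in the class II list, Cd74, H2-Aa, H2-Ab1 and H2-Eb1 were lower than in other cells, against 12.1% of all genes. None was higher. Ciita, the class II transactivator, had 79 UMIs in 27 cells. Thinned to 3000 UMIs, the share with an H2-Aa UMI was 65.3% in keratin-positive cells, 12.3% in T cells and 86.1% in macrophages (72.5%, 18.4% and 91.1% unthinned).

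Class II levels varied from cell to cell. Of the 42 deeper cells, 26 had 10 or more UMIs of H2-Aa, of which 22 had 10 or more of H2-Eb1 and 25 of Cd74. Another 11 had 2 or fewer of H2-Aa, and all 11 had 2 or fewer of H2-Eb1. Of those 11, 8 had more than 10000 UMIs and 6 had 10 or more UMIs of H2-K1. In 2FF plus anti-PD-L1, a cell of 30794 UMIs had no H2-Aa and one of 30616 UMIs had 69. In 2DG the H2-Aa level ran from 0 to 1729 CPM with a median of 193 over 11 cells, and in 2FF from 0 to 1527 with a median of 932 over 9 cells. The ranges overlapped almost wholly. All these genes share the depth of the cell and its library.

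The bases before the start of the class II genes H2-Aa and H2-Eb1 are shown as a description, and shared regulation was not tested. Of the 7 class II genes, 4 were in the RefSeq promoter table of build GRCm38.p6. Cd74, H2-Ab1 and Ciita were not. Capitals mark CTGATTGG, an inverted CCAAT motif of the class II Y box, searched on both strands. H2-Aa is at chr17:34287824-34287973 on the minus strand and H2-Eb1 at chr17:34305717-34305866 on the plus strand, and the 150 bases directly before the start are given 5′ to 3′.
H2-Aa: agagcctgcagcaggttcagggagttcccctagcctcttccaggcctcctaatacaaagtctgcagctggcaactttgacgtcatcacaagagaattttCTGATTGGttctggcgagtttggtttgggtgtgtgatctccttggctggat
H2-Eb1: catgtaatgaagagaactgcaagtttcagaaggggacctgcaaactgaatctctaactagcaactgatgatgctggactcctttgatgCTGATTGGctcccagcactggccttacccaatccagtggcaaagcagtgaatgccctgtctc
The motif began 51 bases before the start of H2-Aa and 62 before that of H2-Eb1. In the 250 bases before the start it was found in 2 of the 4 class II genes and in 1258 of 32851 promoters (3.83%). H2-DMa and H2-DMb1, also among the 4, did not hold it and are not shown. A match describes the sequence and is not a measured binding site.

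**Figure D5:**
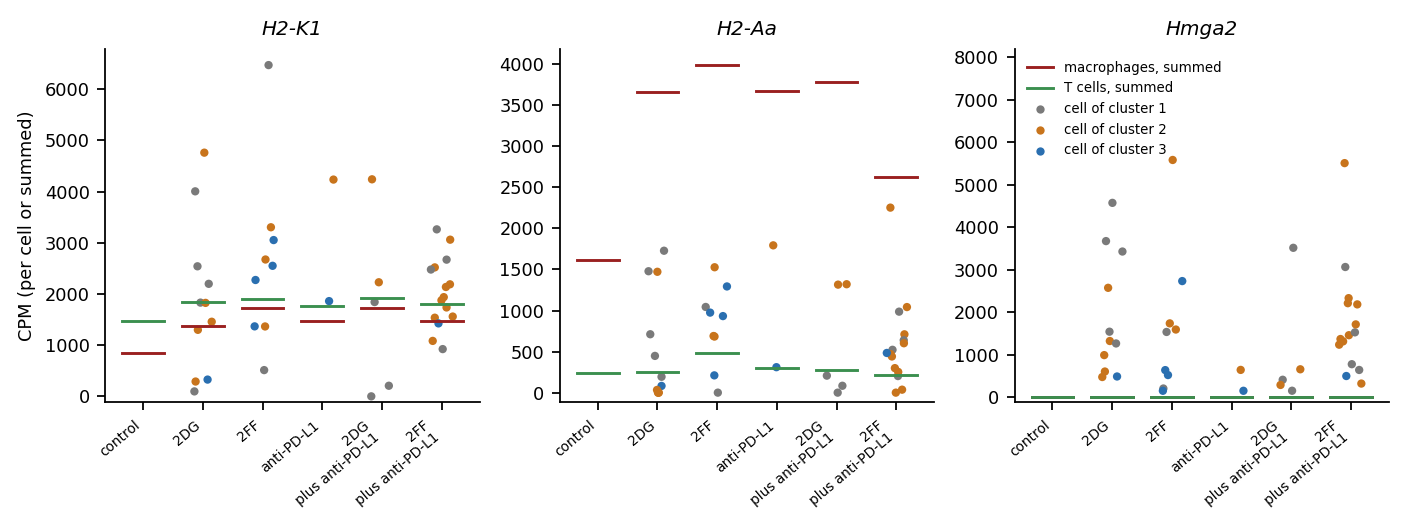
CPM of H2-K1, H2-Aa and Hmga2 in each keratin-positive cell of at least 3000 UMIs (points, colored by cluster), with lines for the summed level in macrophages and T cells of the same library. Hmga2 is above the immune lines in every such cell, while H2-Aa runs from 0 to 2254 CPM.

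Interferon response genes were present in most cells. Of the 19 tested, Iigp1 and Bst2 were higher, a share near the 8.13% of all genes. Cxcl10, Isg15, Irf7 and Rsad2 were lower, against 12.1% of all genes. The lower calls fell from 4 to 0 with the mean of per-cell CPM, to 1 with thinning and to 1 without the 3 cells above 100000 UMIs. Iigp1, an interferon-inducible GTPase, was found in 40 cells at 774 CPM against 126 in other cells. The chemokine Cxcl9, which draws activated T cells, was found in 14 cells and had 10 or more UMIs in 4 of the deeper cells, with 185 in 1 cell of 2FF plus anti-PD-L1. Cd274, which encodes PD-L1, was lower than in other cells in all 3 libraries, with log2 ratios of -2.82 in 2DG, -2.00 in 2FF and -3.15 in 2FF plus anti-PD-L1. Its level was 51.4 CPM in 2DG (18 UMIs), 145 in 2FF (29 UMIs), 0 in anti-PD-L1, 302 in 2DG plus anti-PD-L1 (22 UMIs) and 65.2 in 2FF plus anti-PD-L1 (50 UMIs). T cells had 162, 211, 149.8, 161 and 189 CPM in the same order, so the 2DG plus anti-PD-L1 library alone was above them. There 17 of the 22 Cd274 UMIs came from 1 cell, and the thinned share with a UMI was 41.8% of 5 cells against 25.8% of T cells (3 of 5 cells and 40.1% unthinned). All 7 deeper cells with 5 or more Cd274 UMIs had 10 or more of H2-Aa, as did 26 of all 42 deeper cells. Both limits are raw counts that depend on the depth of the cell, and a link was not tested. Of the 12 checkpoint ligand genes tested, Cd276 (B7-H3) was higher, a share near the 8.13% of all genes. Cd274, Pdcd1lg2, Cd80 and Cd86 were lower, against 12.1% of all genes. The Cd276 call was lost with thinning and without cells below 3000 UMIs. Of 18 chemokine and cytokine genes Il33, Cx3cl1 and Tgfb2 were higher, against 8.13% of all genes, and 10 were lower, against 12.1%. With a minimum of 200 UMIs 15 were tested and none was higher. Il33, an alarmin, had 373 UMIs in 19 cells.

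The glycan genes bear on the enzymes that the 2 inhibitors were meant to act around. Mgat5, which adds the branch recognised on tri- and tetra-antennary N-glycans, had 27 UMIs in 2DG (77.2 CPM, 50.8 to 112), 28 in 2FF (140.0 CPM, 93.0 to 202), 6 in anti-PD-L1 (151 CPM, 55.4 to 329), 7 in 2DG plus anti-PD-L1 (96.1 CPM, 38.6 to 198) and 132 in 2FF plus anti-PD-L1 (172.1 CPM, 144 to 204). Other cells had 222 to 259 CPM in those libraries. Of the 200 Mgat5 UMIs, 62 came from 1 cell of 2FF plus anti-PD-L1. Of the 7 N-glycan branching genes tested only Man2a1 was called, and it was lower, a share near the 12.1% of all genes. Fut8, the core fucosyltransferase, was at 180 CPM in 2DG (138 to 230.3), 250.03 in 2FF (186 to 330), 805 in anti-PD-L1 (551 to 1137), 220 in 2DG plus anti-PD-L1 (126 to 357) and 344 in 2FF plus anti-PD-L1 (304 to 388). T cells had 146, 170.5, 146, 145 and 149 CPM, values that lay inside the intervals of 2DG and 2DG plus anti-PD-L1. Thinned to 3000 UMIs, the share of cells with a Fut8 UMI was 37.0% against 29.8% of T cells in 2DG, 34.9% against 35.4% in 2FF, 74.5% against 31.2% in anti-PD-L1, 28.4% against 31.2% in 2DG plus anti-PD-L1 and 55.4% against 30.8% in 2FF plus anti-PD-L1. By this share keratin-positive cells were above T cells in 2DG (11 cells), anti-PD-L1 (2 cells) and 2FF plus anti-PD-L1 (15 cells). In 2FF the summed level was above that of T cells and the share was not. In anti-PD-L1, 29 of the 32 Fut8 UMIs came from 1 of its 2 cells. Its ratio to other cells was under 2-fold in 2DG, with a log2 ratio of 0.84. Gmds, which makes GDP-fucose from GDP-mannose, was the 1 of 11 fucosylation genes called higher, a share near that of all genes tested. Its call was lost without the 3 cells above 100000 UMIs, with the mean of per-cell CPM, with thinning, with at least 10 keratin UMIs and without any Ptprc or C1q UMI. Lgals1 (galectin 1, a lectin that binds branched N-glycans) was found in 50 cells and was higher, with log2 ratios of 2.63 in 2DG, 1.36 in 2FF and 1.95 in 2FF plus anti-PD-L1.

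None of 19 glycolysis genes was higher, against 8.13% of all genes. Slc2a3, Pfkp, Slc16a3 and Pfkfb3 were lower, against 12.1% of all genes. The list's median log2 ratio was 0.47 in 2DG, -0.42 in 2FF and -0.44 in 2FF plus anti-PD-L1. Among 14 unfolded protein response genes Trib3 and Asns were higher, against 8.13% of all genes. None of 10 hypoxia genes passed 2-fold in all 3 libraries. Of 20 dissociation and stress genes Junb, Hspa1a, Dusp1, Zfp36 and Socs3 were lower, against 12.1% of all genes. Of 12 sialylation genes St3gal2 and St3gal5 were higher, against 8.13% of all genes. Both calls were lost with thinning and without any Ptprc or C1q UMI. Of 12 basement membrane and integrin genes tested, Lama5, Lamb1, Itga3, Itga6 and Itgb4 were higher, against 8.13% of all genes. Cd44 was lower, against 12.1% of all genes.

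Xist, the RNA that coats the inactive X chromosome, was low. It was found in 13 of the 51 cells and was at 0 in 29 of the 42 deeper ones. It had 22 UMIs in 2DG, 52 in 2FF, 0 in anti-PD-L1, 30 in 2DG plus anti-PD-L1 and 137 in 2FF plus anti-PD-L1, a pooled level of 169 CPM against 777 in other cells of these female mice. Thinned to 3000 UMIs, 16.2% of keratin-positive cells held a UMI against 87.8% of T cells (25.5% and 95.1% unthinned). Of the 6 cells with 10 or more Xist UMIs, all held Hmga2 and 5 were in cluster 2.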

How the data were processed

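Single-cell RNA was captured with 10x Chromium 3' chemistry in 6 libraries of 1 mouse each (61859753 to 73885214 UMIs, 57078 barcodes). The deposited matrices hold raw UMI counts for 32285 genes, made by the authors with Cell Ranger and an mm10 reference. The matrix headers and the study's methods name version 7.0.0, and the submitters' processing notes name 3.1.0. The study's filters (at least 250 genes, at most 5% mitochondrial UMIs) were applied. Macrophages (at least 6 C1q UMIs) and T cells (at least 2 Cd3 UMIs), both with Ptprc and no keratin, served for comparison. Counts were summed per library, written as CPM and given 95% exact Poisson or binomial intervals. These cover counting error only. The members and gene lists were chosen with earlier results of these data known.

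Genes named were those of the lists, those of the rule, the 25 with the highest lowest ratio (without mitochondrial, ribosomal, immunoglobulin, T cell receptor and hemoglobin genes and Xist, or genes under 20% of the macrophage or T cell level) and the leading genes of clusters. Hmga2, Cdkn2a, Esr1, Pgr, Malat1, Xist, Srgn and Mgp were also chosen after their values were seen. Clusters came from Leiden at a resolution of 0.5 on 10 principal components of 2000 variable genes (scanpy 1.11.5, Python 3.11.15). Doublets were scored against simulated pairs and kept. Planned ratios between treatments needed 50 cells per library and were not run. Coordinates are from GENCODE on GRCm38, the build of mm10. Some genes of the line and of the clusters are not reported here.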

Additional observations from a re-analysis of the deposited data

Results flagged for a closer look

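Keratin-positive cells also appeared outside the cells analysed, above the mitochondrial limit of 5%. These met every other part of the rule. There were 3 in 2DG, 6 in 2FF, 1 in 2DG plus anti-PD-L1 and 5 in 2FF plus anti-PD-L1. The control and anti-PD-L1 libraries held 0. All 15 held Hmga2 and 14 held Cdkn2a, with Krt7 in 10, Pax8 in 8 and Epcam in 2. Their mitochondrial share ran from 5.05% to 13.3%, with a median of 6.33%, and their median depth was 16036 UMIs.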

How the results depend on the processing

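No paired analysis was possible because each group has 1 library. The control share of 0.0110% became 0 with at least 10 keratin UMIs, 0 without cells below 3000 UMIs and 0 without cells of 8 or fewer Malat1 UMIs. Without the last, the 2FF share fell from 0.163% to 0.0779%. With 10 or more keratin UMIs, shares fell from 0.156% to 0.0909% (2DG), 0.163% to 0.108% (2FF) and 0.0227% to 0.0114% (anti-PD-L1). Without any Ptprc or C1q UMI they fell from 0.163% to 0.108% in 2FF and 0.0554% to 0.0332% in 2DG plus anti-PD-L1. With 3 or more keratin UMIs the control share was 0.022% and the 2DG share 0.234%. Genes lower in keratin-positive cells numbered 2510 with a pseudocount of 1 CPM against 1616. Leaving out each of the 3 libraries in turn gave 1243 to 1548 higher genes (1090 with all 3) and 1775 to 1874 lower ones. Without the 3 cells above 100000 UMIs the counts were 1050 and 1627. Over the alternatives, genes called higher ran from 0 to 8 in the epithelial list and 0 to 3 in the homologous recombination list. They ran from 2 to 8 in the MAPK list and 6 to 14 in the G2 and M phase list. The range was 3 to 8 in the mesenchymal list and 1 to 4 in the fibroblast list. In the chemokine and cytokine list it was 0 to 4, and in the S phase list 0 to 2. Lower class II genes ran from 2 to 6. Leiden at a resolution of 1 gave 5 clusters in place of 3, and the cluster led by Epcam and Lcn2 held 7 cells without those below 3000 UMIs. The comparison in libraries of at least 10 cells, the Malat1 and 3000 UMI limits and the removal of single cells were chosen after seeing the data. Ratios between treatments were not run, since no library held 50 keratin-positive cells.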
